A study of Rattus norvegicus with 15 samples.

Results

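Gene expression at the upper and lower ends of the rat small bowel was compared between 3 samples of duodenal mucosal cells and 3 samples of ileal mucosal cells, 6 of the 15 samples of a series on 5 segments of the gut (stomach, 3 parts of the small bowel, colon; 3 samples a segment). The samples were chosen by their labels alone, and all genes of the array were used. Segments of the gut had been everted and treated shortly with pronase, a protease mixture, and the cells that came loose were separated by elutriation, which sorts cells in a counterflow of liquid. The rats were labelled as male Sprague Dawley, except for ileum 3, whose label gives neither strain nor sex; no age and no treatment are given. The series text speaks of 3 independent isolations and does not say whether each came from another animal, so p-values measure the spread between these isolations. Whole suspensions were used, in which epithelial cells of all types can be mixed with other cells, so fewer cells of a type and less RNA per cell cannot be told apart here.

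The duodenum receives the acid contents of the stomach together with bile and pancreatic juice. Its wall holds Brunner's glands, which secrete mucus and bicarbonate, and its enterocytes take up most dietary iron and much of the calcium. The ileum recovers bile salts and cobalamin, holds endocrine cells of the distal type and, in its Peyer's patches, much organised lymphoid tissue, and its crypts are rich in Paneth cells that secrete antimicrobial proteins.

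Each level below is the log2 intensity of a gene's probe relative to the 75th percentile of its sample, which is set to 0. Levels of different genes cannot be ranked, because each probe has its own brightness. Values are given in the order of samples 1, 2 and 3, and a difference is the duodenal minus the ileal mean on the log2 scale from the limma fit, with its standard error (SE). A gene is called where the limma p-value, adjusted over all 33648 genes tested by Benjamini-Hochberg, was under 0.05.

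The 5 genes named as markers of the ends followed the labels. Slc40a1, ferroportin, the iron exporter of the basal membrane, was at 0.14, 0.63 and -0.38 in the duodenum and at -4.04, -3.97 and -3.59 in the ileum, a difference of 4.12 ± 0.39 (SE), or 17.3-fold (adjusted p = 7.66e-06). Its probe lies at chr9:44982185-44983163 on the minus strand in rn3, the rat build of the array design. Pdx1, a transcription factor of the duodenum and pancreas, was at 2.88, 3.12 and 2.69 against -2.14, -1.90 and -1.77, which is 28.6-fold (adjusted p = 6.56e-08). Gata4, a transcription factor of the proximal bowel, was at 2.71, 2.43 and 2.65 against 0.57, 1.03 and -0.0020, or 4.19-fold (adjusted p = 0.00112). In each of these genes every duodenal sample lay above every ileal sample. Fabp6, the ileal bile acid binding protein, was at -2.73, -2.83 and -2.86 in the duodenum and at 5.87, 6.03 and 4.96 in the ileum, where its spot was saturated in all samples, so the ileal level was at least 345-fold higher (adjusted p = 9.41e-09). Pyy, the hormone peptide YY of distal endocrine cells, was at -2.06, -3.03 and -2.05 in the duodenum and at 3.07, 2.84 and 3.36 in the ileum, 51.8-fold higher there (adjusted p = 1.09e-07). Both ileal markers were thus separated from the duodenal values by a wide gap.

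Of all genes tested, 951 (2.83%) were called, 499 higher in the duodenum (1.48%) and 452 higher in the ileum (1.34%). The median absolute difference of the called genes was 1.75, and 153 genes were more than 4-fold higher in the duodenum against 209 in the ileum. The median difference over all genes was -0.07. The 3 duodenal and 3 ileal values did not overlap in 6988 genes (20.8%), among them 946 of the called genes. A gene could enter the test through another segment alone, so shares of all genes include some not clearly above background at either end. With only genes clearly above background in all 3 duodenal or all 3 ileal samples, 23021 were tested. Of these, 638 were called higher in the duodenum and 402 lower.

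**Figure D1:**
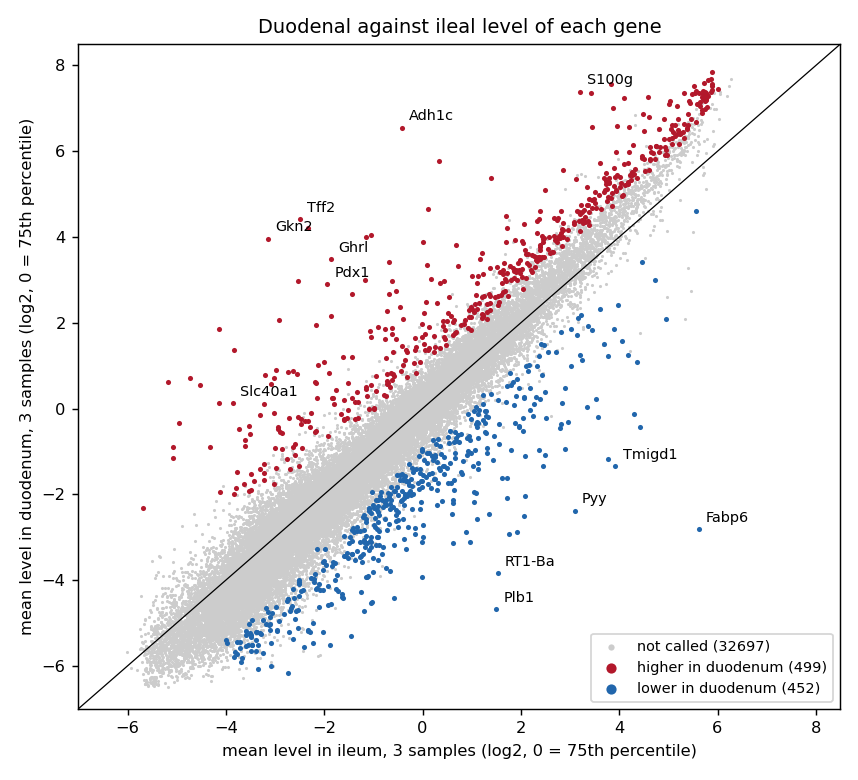
Mean level of each tested gene in the ileum (x axis) and the duodenum (y axis), both log2 with 0 at the sample's 75th percentile and n = 3; red points are the 499 genes called higher in the duodenum, blue points the 452 called lower, grey points the rest, and the line marks equal levels. Fabp6, Pyy and Tmigd1 lie far to the ileal side and Adh1c, Tff2 and Gkn2 far to the duodenal side, and the cloud of grey points rises above the line among bright genes.

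The differences depended on brightness, and several results below turn on this. Among the 719 genes with a mean level of 4 or more, the median difference was 0.79, with 157 called higher in the duodenum and 1 lower. Among the 4121 genes below -4 it was -0.45, with 0 called higher by limma and 41 lower. Quantile normalization, which forces equal distributions on the samples, brought these medians to -0.03 and -0.07. With normexp, another background correction, the dependence turned round, to -0.22 for the bright and 0.37 for the dim genes. Quantile normalization kept 257 of the 499 genes called higher in the duodenum and 356 of the 452 called lower, and 942 of the 951 kept their direction. Normexp kept 490 of the 951 calls, with 904 in the same direction, and 50 called genes changed sign in some setting. Duodenal and ileal samples share no array and no scan day, and ileum 2 and 3 were read with another software version; with scan day as the random block 311 genes were called higher and 286 lower. Duodenum 1 also weighed heavily: it is the only duodenal sample in the green dye Cy3, the dye of all 3 ileal samples, and 754 calls were lost without it. Ileum 3 came next, with 566 calls lost without it. In every one of the 15 fits that each left out 1 sample, 183 genes were called, 88 higher in the duodenum and 95 lower. Where a gene described as called between the ends is not among these, its adjusted p without duodenum 1 or its largest adjusted p over those fits is given.

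Among the genes furthest above the ileum in the duodenum were those of gastric type mucous cells, which Brunner's glands resemble. Gkn2, a gastrokine secreted by gastric surface cells, was at 4.10, 4.01 and 3.78 in the duodenum and at -4.02, -2.92 and -2.50 in the ileum, a difference of 7.43 ± 0.42 (SE), or 173-fold (adjusted p = 1.67e-08). Its neighbour in the genome, Gkn1, was at 4.17, 4.64 and 3.81 against -2.69, -2.35 and -1.93, or 109-fold (adjusted p = 1.02e-08). Tff2, the trefoil peptide of mucous neck cells and Brunner's glands, was at 4.56, 4.47 and 4.21 against -3.42, -2.15 and -1.90, or 128-fold (adjusted p = 1.02e-08). All duodenal values of these genes lay in a narrow band far above the ileal ones. Tff1, the trefoil peptide of gastric surface cells, was 49.3-fold higher (adjusted p = 5.58e-05). The gel-forming mucin Muc5ac was at 0.23, 0.35 and -0.02 against -2.31, -1.36 and -1.14, which is 3.56-fold (adjusted p = 0.00331, 0.0764 without duodenum 1). Anxa10, an annexin of gastric epithelium, was 4.89-fold higher (adjusted p = 0.00331, 0.081 without duodenum 1). Muc6, the mucin of gland mucous cells, was at -1.49, -1.36 and -2.01 against -2.09, -2.59 and -1.16 and was not called (adjusted p = 0.782). Of 11 tested genes on the list of Brunner gland and gastric mucous genes, 6 were called higher and 0 lower, with a median difference of 1.83. On the list of 11 chief and parietal cell genes, which mark the acid glands of the stomach, limma called 0, and the median was 0.17.

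The promoters of the gastrokine pair, which stand next to each other on chromosome 4 on opposite strands, are shown because the genes moved together. The sequences are the RefSeq promoters of the GRCr8 build, 250 bases before to 50 after the start of the gene, at chr4:121352656-121352955 on the minus strand for Gkn1 and chr4:121375344-121375643 on the plus strand for Gkn2. Capitals mark AGATAA and TGATAA, 2 forms of the motif read by GATA factors, found on either strand (TTATCA is TGATAA on the other strand).
Gkn1: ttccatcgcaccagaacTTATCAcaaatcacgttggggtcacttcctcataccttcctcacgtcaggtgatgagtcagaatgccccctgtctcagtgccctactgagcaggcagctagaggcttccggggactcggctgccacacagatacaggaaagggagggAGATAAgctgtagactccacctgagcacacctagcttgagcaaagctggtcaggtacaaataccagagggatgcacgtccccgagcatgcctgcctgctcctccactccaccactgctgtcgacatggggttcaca
Gkn2: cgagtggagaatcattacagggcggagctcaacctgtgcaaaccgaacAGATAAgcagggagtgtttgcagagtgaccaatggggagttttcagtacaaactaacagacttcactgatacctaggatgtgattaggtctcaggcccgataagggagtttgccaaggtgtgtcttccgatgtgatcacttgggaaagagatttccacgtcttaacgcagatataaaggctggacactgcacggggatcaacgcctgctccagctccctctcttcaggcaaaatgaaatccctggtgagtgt
Counted from the first base of the match, with -1 just before the start, Gkn1 held AGATAA at -86 and TGATAA at -233, and Gkn2 held AGATAA at -202. Of 210 genes called higher in the duodenum that had a promoter in the table, 29 (13.8%) held AGATAA, against 12 of 221 genes called higher in the ileum (5.43%), 8.69% of the 12238 tested genes with a promoter and 11.3% of all 27457 promoters. For TGATAA the shares were 4.76%, 7.24%, 6.32% and 8.89%. The motifs share the letters GATAA, and a match is a run of letters, with no measure of binding in these data.

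Other leading genes of the duodenum were enzymes and secreted proteins. Adh1c, an alcohol dehydrogenase, was at 6.64, 6.54 and 6.48 in the duodenum and at -0.57, -0.31 and -0.39 in the ileum, 141-fold apart with little spread in either segment (adjusted p = 6.82e-10). Adh7, the retinol-oxidising alcohol dehydrogenase of the upper gut, was at 0.57, 1.20 and 0.10 against -4.34, -5.33 and -5.84, and since no ileal spot was well above background the duodenal level was at least 31.6-fold higher (adjusted p = 6.41e-07). Papss2, which makes the activated sulfate used in sulfation, was 48.2-fold higher (adjusted p = 7.22e-05). Leg1 was at 1.86, 1.90 and 1.78 against -4.78, -1.68 and -5.98, so that the ileal samples disagreed widely while lying below every duodenal one (adjusted p = 0.000785).

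**Figure D2:**
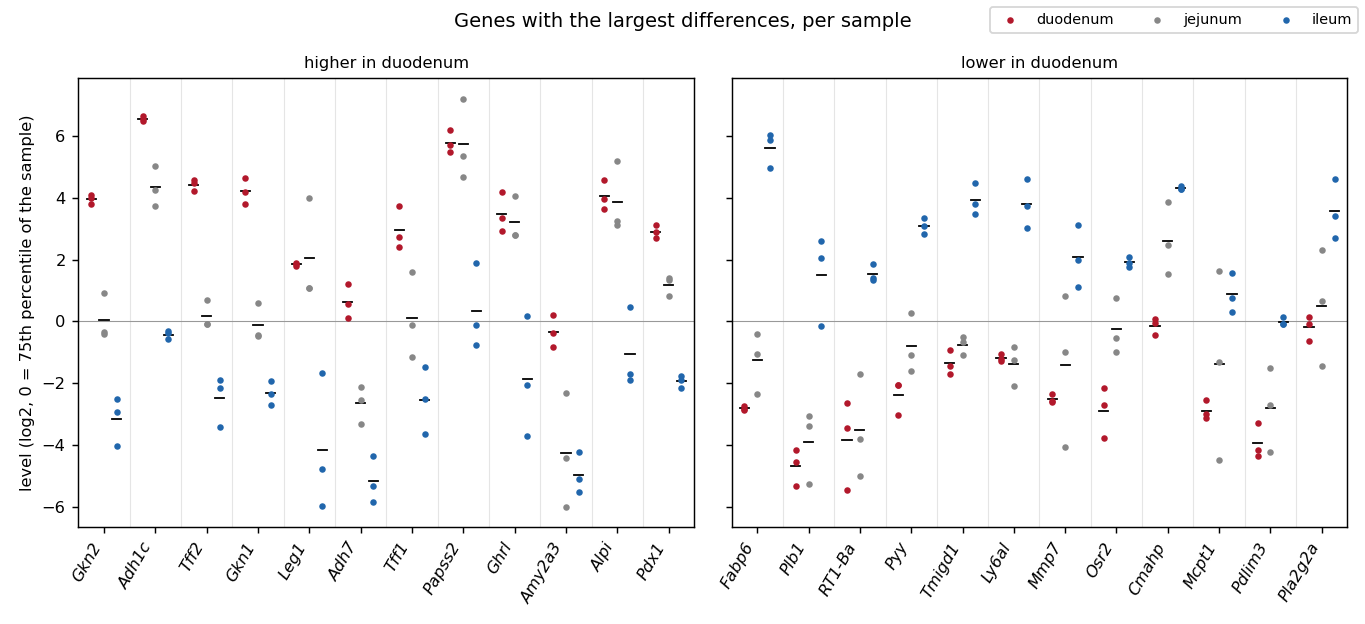
Level (log2, 0 = the sample's 75th percentile) of 12 called genes for each direction. They have the largest differences among called genes whose 3 duodenal and 3 ileal values do not overlap. Each point is a sample, red for duodenum, grey for jejunum and blue for ileum, and bars mark the mean of 3. Red and blue points of a gene are therefore apart by choice. Jejunal points lie between for Gkn2 and Adh1c and near the red points for Alpi and Tmigd1.

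Among 31 regional transcription factors tested, 2 were called higher in the duodenum, Pdx1 and Gata4, and 3 higher in the ileum, with a median difference of 0.29. Osr2, a zinc finger factor, was at -2.17, -3.77 and -2.71 in the duodenum and at 1.77, 1.87 and 2.10 in the ileum, 29.1-fold higher there (adjusted p = 3.85e-06). The caudal factor Cdx1 was at -2.24, -2.41 and -2.43 against 0.09, -0.57 and -1.15 (3.62-fold, adjusted p = 0.0309, 0.16 without duodenum 1). Foxa3, a forkhead factor, was 2.3-fold higher in the ileum (adjusted p = 0.0298, 0.365 without duodenum 1). Cdx2, the main intestinal caudal factor, was at 5.0, 4.32 and 4.88 against 4.06, 4.71 and 4.28 and was not called (adjusted p = 0.569). Gata6 was at 2.24, 2.09 and 2.00 against 2.01, 1.45 and 0.35, also not called (adjusted p = 0.208). Meis2, a homeobox factor outside that list, was at -0.73, -0.55 and -1.39 in the duodenum and not well above background in any ileal sample, at least 11.1-fold higher (adjusted p = 0.000142). Of 25 Hox genes, which set position along the body axis, 0 were called higher and 1, Hoxa4, was called lower in the duodenum. It was not well above background in any duodenal sample and at least 2.65-fold higher in the ileum (adjusted p = 0.00745, 0.21 without duodenum 1).

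Iron genes were higher in the duodenum at the step of export and of reduction at the brush border. Beside Slc40a1, the ferric reductase Cybrd1 was at 1.18, 1.39 and 1.05 in the duodenum and at -2.14, -1.53 and -1.17 in the ileum, with no overlap and a difference of 7.11-fold (adjusted p = 0.00749, 0.138 without duodenum 1). The ferritin heavy chain Fth1, an iron store, was at 7.42, 6.91 and 7.15 against 4.54, 5.60 and 4.94, or 4.22-fold (adjusted p = 0.00117, 0.0708 without duodenum 1). Its light chain Ftl1 was 2.97-fold higher (adjusted p = 0.0205, 0.128 without duodenum 1), where a second probe differed by only 0.24. The transferrin receptor Tfrc was 2.23-fold higher (adjusted p = 0.0106, 0.255 without duodenum 1). Fth1, Ftl1 and Tfrc are bright genes, and with quantile normalization their adjusted p-values were 0.113, 0.361 and 0.0761. Of 20 iron genes tested, 5 were called higher in the duodenum and 1 lower, with a median difference of 0.37, and only Slc40a1 held its call in all 15 fits that left out a sample. The gene called lower, Slc39a8, a carrier of zinc, iron and manganese, was at 0.97, 0.83 and 0.84 against 2.52, 1.86 and 2.04 (adjusted p = 0.0479, 0.266 without duodenum 1). Its other probes differed by -0.40 and -0.71, and in both the segments overlapped. Heph, the ferroxidase that works with ferroportin, was at 2.19, 2.40 and 1.88 against 2.33, 2.59 and 2.68 (adjusted p = 0.816). For Slc11a2, the brush border iron carrier, the probes of the gene disagreed. The brighter probe used in the fit read 0.43, 1.21 and 0.51 against -0.13, 0.48 and 0.68 (adjusted p = 0.75), while a second probe read 1.84, 1.73 and 1.56 against -1.17, -0.52 and -0.43.

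Calcium entry and buffering followed the same axis. S100g, calbindin D9k, the calcium shuttle of the enterocyte, was at 7.13, 7.62 and 7.42 in the duodenum and at 2.99, 3.49 and 3.13 in the ileum, or 19-fold (adjusted p = 9.23e-07), although its spot was saturated in 2 duodenal samples. Trpv6, the calcium channel of the brush border, was at 1.86, 2.03 and 1.78 against -1.14, -0.75 and -0.83, or 7.42-fold (adjusted p = 2.38e-06). Values of both genes were tight within each segment, and both calls held in every fit that left out a sample. The calcium pump Atp2b1 was at 3.25, 3.81 and 2.78 against 1.60, 1.41 and 1.11, or 3.87-fold (adjusted p = 0.011, 0.16 without duodenum 1). Vdr, the vitamin D receptor, was at 0.21, -0.48 and -0.33 against -0.89, -0.82 and -1.37 and was not called (adjusted p = 0.552). Of 12 genes on the calcium list, 3 were called higher in the duodenum and 0 lower, with a median of 0.24. Among 18 genes of folate, vitamin and zinc uptake, 1 was called each way. Slc30a10, a manganese exporter, was 5.94-fold higher in the duodenum (adjusted p = 0.000356). Naaladl1, a brush border peptidase, was at -0.86, -1.13 and -0.85 against 2.81, 3.12 and 2.74, 13.1-fold higher in the ileum (adjusted p = 1.23e-06). The folate carrier Slc46a1 was at -0.59, -0.60 and -1.03 against -1.03, -0.63 and -0.58 (adjusted p = 0.822).

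Of 16 sugar handling genes tested, 4 were called higher in the duodenum and 0 lower, and the median difference was 1.30. Quantile normalization gave 2 calls higher and normexp 6. G6pc1, the phosphatase that releases glucose from the cell, was at 2.44, 2.66 and 1.99 against -0.61, -0.11 and -0.68, or 8.1-fold (adjusted p = 0.000353). Calls of the others were lost without duodenum 1. Pck1, which feeds gluconeogenesis, was 4.18-fold higher (adjusted p = 0.0287, then 0.205; a second probe differed by 0.31) and Fbp1, which acts further along that path, 2.94-fold (adjusted p = 0.0087, then 0.191). With quantile normalization Fbp1 was not called (adjusted p = 0.0625). The fructose carrier Slc2a5 was at 1.99, 2.39 and 1.56 against 0.43, 1.27 and -0.84 (adjusted p = 0.0985), and the sodium-glucose carrier Slc5a1 was at 1.05, 0.89 and 0.94 against 0.37, 0.76 and 0.27 (adjusted p = 0.303). In both, the segments did not overlap, yet neither was called.

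Brush border enzymes divided. Alpi, intestinal alkaline phosphatase, was at 3.94, 4.56 and 3.63 in the duodenum and at -1.89, 0.48 and -1.71 in the ileum, or 38.5-fold (adjusted p = 4.51e-05). Tmprss15, enteropeptidase, which activates trypsinogen, was at 0.39, 0.25 and -0.23 in the duodenum and not well above background in the ileum, at least 19.3-fold higher (adjusted p = 6.26e-06). Of 10 carbohydrases and phosphatases, 2 were called higher, Alpi and the phosphodiesterase Enpp3 (adjusted p = 0.0407, at most 0.362 with a sample left out), and 0 lower. A second Enpp3 probe differed by only 0.06, and normexp called 4 of the list. Sucrase-isomaltase, Si, was at 3.55, 4.14 and 3.12 against 2.42, 3.96 and 1.53 (adjusted p = 0.425), with ileum 2 inside the duodenal range. Of 14 peptidases, Tmprss15 was called higher and 2 were called lower, 5 with normexp. Enpep, which removes acidic residues, was at 1.73, 1.79 and 1.02 against 3.09, 4.10 and 3.88 (adjusted p = 0.0461, at most 0.137 with a sample left out). Its other probes differed by -2.06 and by only -0.0018. Xpnpep2, which cleaves before proline, was 2.32-fold higher in the ileum (adjusted p = 0.0486, 0.332 without duodenum 1). Among 17 amino acid and peptide carriers only the glutamine carrier Slc38a2 was called (2.18-fold higher in the duodenum, adjusted p = 0.0478, 0.313 without duodenum 1).

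Of 25 fat absorption genes tested, 1 was called in each direction. Their median was 0.14, and it turned to -0.04 with quantile normalization. Scarb1, a lipoprotein receptor, was at 2.05, 2.52 and 1.72 in the duodenum and at -1.11, 1.04 and -1.13 in the ileum, or 5.7-fold higher (adjusted p = 0.00877, 0.119 without duodenum 1). A second, dimmer probe differed by 1.28, with ileum 2 above every duodenal sample. Cd36, a fatty acid receptor, was at -0.71, -0.48 and -0.44 against 0.68, 1.02 and 0.31, 2.36-fold higher in the ileum (adjusted p = 0.0291, 0.323 without duodenum 1). Apoa4, the apolipoprotein of chylomicrons, was at 5.26, 6.14 and 4.96 against 2.15, 5.33 and 1.94, with ileum 2 standing among the duodenal samples (adjusted p = 0.0784). The same sample was the highest of the ileal samples for Ghrl, Alpi, Scarb1 and Papss2.

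**Figure D3:**
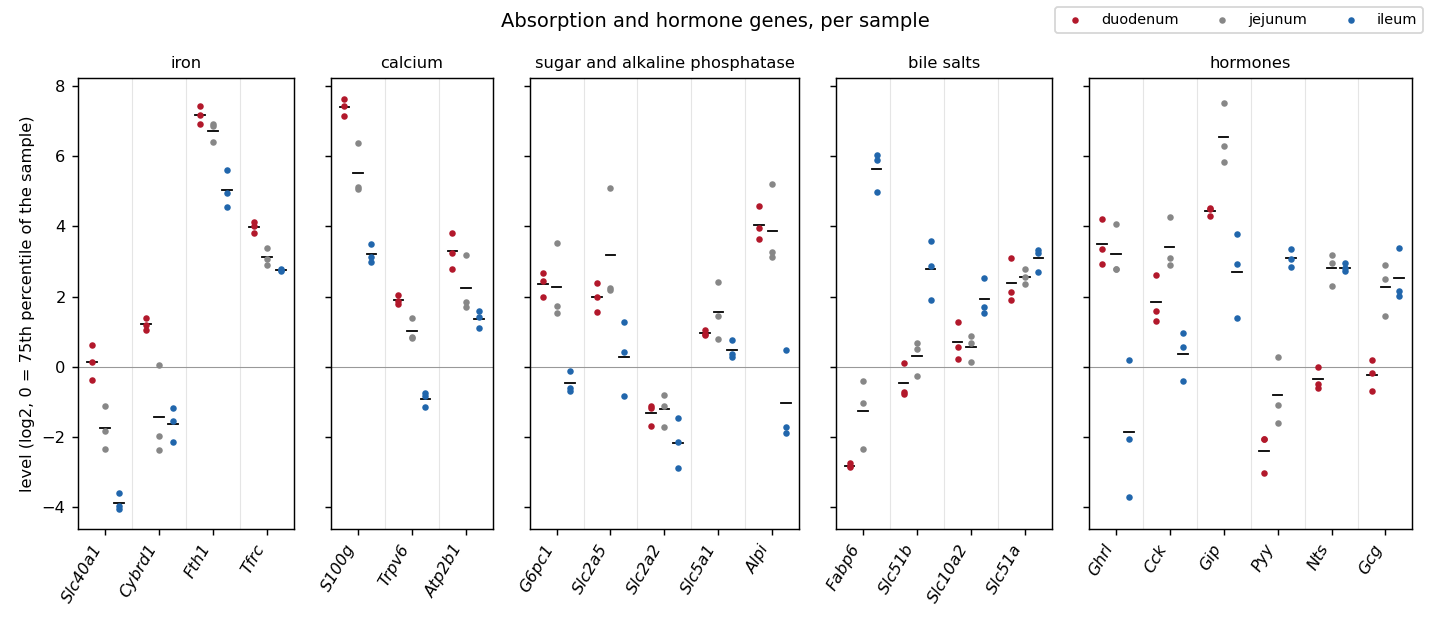
Level (log2, 0 = the sample's 75th percentile) of genes of iron, calcium, sugar, bile salt and hormone biology; points are samples of the duodenum (red), jejunum (grey) and ileum (blue), and bars the mean of 3. Slc40a1, S100g and Trpv6 step down from duodenum to jejunum to ileum, Fabp6 and Pyy step up, and Gip and Cck are highest in the jejunum.

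Bile salt recovery marked the ileum. After Fabp6, Slc51b, a subunit of the basolateral bile salt exporter, was at -0.70, 0.12 and -0.77 in the duodenum and at 1.91, 2.88 and 3.56 in the ileum, 11.4-fold higher (adjusted p = 5.95e-05). Slc51a, the other subunit, was at 2.14, 1.91 and 3.11 against 2.71, 3.24 and 3.34, overlapping and not called (adjusted p = 0.296). The apical sodium-dependent bile salt carrier Slc10a2 was at 0.57, 0.23 and 1.28 against 1.52, 1.71 and 2.53, only 2.44-fold higher in the ileum (adjusted p = 0.0405, 0.366 without duodenum 1). Fgf19, the hormone of the ileum that restrains bile acid synthesis, was dim in every sample, at -3.95, -5.05 and -3.66 against -4.13, -4.08 and -3.35 (adjusted p = 0.843). The bile acid receptor Nr1h4 was at -0.90, 0.53 and -0.98 against -1.01, -0.38 and 0.53 (adjusted p = 0.855). For cobalamin, the receptor subunit Cubn was at 0.33, -0.55 and 0.59 against 0.13, 0.77 and 0.04 (adjusted p = 0.92) and its partner Amn at 0.59, 0.85 and 0.39 against 0.95, 2.73 and 1.57 (adjusted p = 0.24). Of the 15 genes of this list, 0 were called higher in the duodenum and 3 lower, with a median of -0.25.

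Plb1 and Tmigd1 were also among the genes furthest on the ileal side. Plb1, a phospholipase of the brush border, was at -4.54, -5.33 and -4.16 in the duodenum and at 2.06, 2.59 and -0.14 in the ileum, 85.2-fold higher (adjusted p = 3.76e-05), with ileum 3 below the other ileal samples. Tmigd1, an adhesion protein of epithelial cells, was at -1.44, -1.69 and -0.92 against 3.49, 3.80 and 4.49, or 43.7-fold (adjusted p = 3.11e-08). The promoters of Fabp6 and Plb1 are shown as those of ileal genes of lipid and bile salt handling that were low in all duodenal samples. They are again RefSeq promoters of GRCr8, 250 bases before to 50 after the start, at chr10:28569678-28569977 and chr6:29930134-29930433, both on the minus strand. Capitals mark CATAAA, which is the caudal factor motif TTTATG on the other strand, and TTATCA.
Fabp6: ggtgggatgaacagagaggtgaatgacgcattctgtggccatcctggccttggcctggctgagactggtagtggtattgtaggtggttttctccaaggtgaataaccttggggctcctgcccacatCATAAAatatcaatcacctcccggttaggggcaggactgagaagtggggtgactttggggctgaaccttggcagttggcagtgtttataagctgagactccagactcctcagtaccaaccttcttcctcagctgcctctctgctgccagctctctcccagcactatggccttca
Plb1: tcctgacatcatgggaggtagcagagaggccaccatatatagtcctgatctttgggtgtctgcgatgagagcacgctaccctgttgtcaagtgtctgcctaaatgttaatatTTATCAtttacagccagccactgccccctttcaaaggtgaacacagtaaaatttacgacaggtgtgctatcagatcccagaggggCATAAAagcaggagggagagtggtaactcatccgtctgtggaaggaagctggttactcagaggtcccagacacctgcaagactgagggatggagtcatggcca
Fabp6 held TTTATG at -124, and Plb1 held it at -53 beside TGATAA at -138. The motif TTTATG stood in 11.3% of the promoters of genes called higher in the ileum, in 8.1% of those called higher in the duodenum, in 9.17% of those of all tested genes and in 12.5% of all promoters. An inverted repeat of AGGTCA spaced by 1 base, a form read by the bile acid receptor, was in 0 promoters of either called set and in 0.00817% of those of tested genes. The palindromic HNF1 motif was in 0 promoters of tested genes. Both promoter comparisons are counts of letters, with no test.

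Hormone genes had been sorted into a proximal and a distal list. Ghrl, ghrelin, was at 3.34, 4.19 and 2.93 in the duodenum and at -3.71, 0.19 and -2.04 in the ileum, or 43.2-fold (adjusted p = 0.000188). Gast, gastrin, was 3.02-fold higher (adjusted p = 0.0422, 0.301 without duodenum 1). Neither Gip, Cck nor Sct was called. Gip, the incretin of K cells, was at 4.53, 4.50 and 4.30 against 2.93, 3.78 and 1.39 (adjusted p = 0.0649), and Cck, cholecystokinin, was at 1.60, 2.61 and 1.31 against -0.41, 0.97 and 0.58 (adjusted p = 0.107). Secretin, Sct, was at 4.65, 4.72 and 4.01 against 3.39, 3.25 and 4.16 (adjusted p = 0.258). Of 10 proximal hormone and endocrine genes, 2 were called higher and 0 lower, with a median of 1.26. On the distal side, Nts, neurotensin, was at -0.60, -0.48 and 0.0026 in the duodenum and at 2.71, 2.96 and 2.80 in the ileum, 9.26-fold higher (adjusted p = 1.28e-05). Gcg, which encodes the glucagon-like peptides, was at 0.20, -0.16 and -0.70 against 3.39, 2.02 and 2.16, or 6.51-fold (adjusted p = 0.0112, 0.103 without duodenum 1). With Pyy, 3 of 6 distal genes were called higher in the ileum and 0 in the duodenum, with a median of -1.58. Genes that endocrine cells of both ends share had 3 of 14 called higher in the duodenum and 0 lower. Tph1, which makes serotonin in enterochromaffin cells, was 3.17-fold higher (adjusted p = 0.00712), while a second probe differed by 0.42. The granule proteins Chga and Chgb were 4.21-fold and 4.51-fold higher (adjusted p = 0.00478 and 0.00533, then 0.066 and 0.154 without duodenum 1).

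Enzymes that conjugate foreign compounds had the most members called higher in the duodenum of any list, and also the most members tested. As a share, the list of Brunner gland and gastric mucous genes stood higher, with 6 of 11. Of 33 conjugation genes tested, 11 were called higher in the duodenum, against 1.48% of all genes, and 0 lower. The median difference was 0.74, and 4 calls held in all fits that left out a sample. Ugt2b7, a glucuronosyltransferase, was at 4.87, 4.63 and 4.43 in the duodenum and at 0.10, 0.09 and 0.14 in the ileum, 24.7-fold apart with almost no spread in the ileum (adjusted p = 1.4e-06). Gsta1, a glutathione transferase, was at 0.73, 0.89 and 0.52 against -3.55, -2.97 and -2.54, or 13.7-fold (adjusted p = 9.23e-07). The sulfotransferase Sult1c2 was at 2.61, 2.84 and 1.98 against 0.08, -0.03 and 0.14, or 5.45-fold (adjusted p = 2.71e-05). Ugt2b37 was 6.02-fold higher (adjusted p = 0.00389). Gsta2 was 8.94-fold higher (adjusted p = 0.00348, 0.122 without duodenum 1) and Ugt2b35 19.8-fold (adjusted p = 0.00259, then 0.0598). The bright genes Gstp1 and Mgst3 lost their calls with quantile normalization (adjusted p = 0.752 and 0.3) and without duodenum 1 (0.348 and 0.255). Probes of the Gsta and Ugt2b families may bind transcripts of their near-identical relatives, so which member was measured is uncertain. Aldh1a1, which makes retinoic acid from retinal, was at 2.42, 3.36 and 2.48 against -0.58, -0.14 and -0.88, or 9.55-fold (adjusted p = 5.58e-05). It and Adh7 were the 2 called of 13 tested genes on the list of alcohol and retinal dehydrogenases. Adh1c, described above and also called, was not on that list.

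Export pumps went the other way in the few genes called. Of 14 ABC efflux pumps, 0 were called higher in the duodenum and 2 lower. Abcb1b, a P-glycoprotein, was at -3.56, -3.33 and -2.67 against -0.90, -1.04 and -0.69, 4.89-fold higher in the ileum (adjusted p = 0.00186, 0.091 without duodenum 1). Abcg2, another drug efflux pump, was 4.64-fold higher in the ileum (adjusted p = 0.0346, 0.241 without duodenum 1). Of 27 cytochrome P450 and reductase genes only Cyp4f6 was called (3.07-fold higher in the duodenum, adjusted p = 0.0433, 0.297 without duodenum 1). Among 31 genes of bicarbonate, sodium and chloride transport, 4 were called higher and 0 lower, while the median was -0.15. With quantile normalization 2 were called lower, with normexp 3. The sodium bicarbonate carrier Slc4a7 was at 2.43, 2.22 and 2.04 against 0.26, -0.10 and -0.08, or 5.08-fold (adjusted p = 3.82e-05). Car2, a carbonic anhydrase that supplies bicarbonate, was 9.21-fold higher (adjusted p = 0.00491), and the chloride bicarbonate exchanger Slc26a3 3.72-fold (adjusted p = 0.0251). Without duodenum 1 their adjusted p-values were 0.0822 and 0.114. Of 26 genes of ketogenesis and fatty acid oxidation, only Hadh was called (2.38-fold higher in the duodenum, adjusted p = 0.0208, 0.262 without duodenum 1), and with another background correction its difference was -0.050.

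Of 18 Paneth cell and antimicrobial genes tested, 6 were called lower in the duodenum and 2 higher, with a median of -1.05. Pla2g2a, a secreted antibacterial phospholipase, was at -0.08, 0.14 and -0.64 in the duodenum and at 2.69, 3.40 and 4.62 in the ileum, or 19.1-fold (adjusted p = 0.00204). Duox2, which makes hydrogen peroxide at the apical surface, was at -2.21, -1.69 and -2.33 against 1.48, 1.54 and 2.13, or 14.8-fold (adjusted p = 3.34e-06). Mmp7, which activates defensins in Paneth cells, was 33.7-fold higher in the ileum (adjusted p = 0.00536, 0.0931 without duodenum 1), and the lysozyme Lyz2 8.7-fold (adjusted p = 0.037, then 0.267). The others called lower were Reg4 (adjusted p = 0.00683, 0.0511 without duodenum 1) and Nos2 (adjusted p = 0.0479, then 0.255). The defensin Defa24 was at 2.85, 3.05 and 2.33 against 5.26, 6.26 and 4.85 and was not called (adjusted p = 0.374). On the duodenal side, Reg1a, a secreted lectin-like protein, was at 3.27, 4.06 and 2.95 against -2.23, -0.79 and 0.94, or 22.2-fold (adjusted p = 0.0031), and Dmbt1, a mucosal scavenger protein, was 3.41-fold higher (adjusted p = 0.0106, 0.248 without duodenum 1). Olfm4, which marks crypt base cells, was the 1 called gene of 15 stem and progenitor genes, at -0.35, 0.57 and -0.13 against 3.47, 2.75 and 3.81 (adjusted p = 0.00831, 0.135 without duodenum 1). Lgr5, the receptor of crypt stem cells, was at 0.54, -0.26 and 0.83 against -0.02, 0.28 and 0.50 (adjusted p = 0.906). Of 29 proliferation genes, limma called 0, although 27 had a negative difference. Of 9 goblet cell genes it also called 0, but 4 were called lower in the duodenum with quantile normalization and 2 with normexp. Tff3, the goblet trefoil peptide, was at 6.22, 6.37 and 5.91 against 5.85, 6.13 and 4.88 (adjusted p = 0.504).

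Of 11 antigen presentation genes of class II, 5 were called, all lower in the duodenum. RT1-Ba, a class II chain, was at -3.46, -2.63 and -5.45 in the duodenum and at 1.84, 1.41 and 1.34 in the ileum, 55.6-fold higher there (adjusted p = 9.37e-05). Cd74, the invariant chain that guides class II molecules, was at 1.26, 1.90 and 0.09 against 4.31, 4.61 and 4.14, or 12.4-fold (adjusted p = 0.000616). RT1-Bb was 13.7-fold, RT1-Da 12-fold and RT1-Db1 10.7-fold higher in the ileum (adjusted p = 6.26e-06, 0.000344 and 1.46e-05). These 5 calls held in every fit that left out a sample, and the median of the list was -1.86. A second probe of RT1-Db1 differed by -0.91. The RT1 genes are close relatives, so their probes may share transcripts. Ciita, the switch of class II transcription, was at -1.71, -3.48 and -2.35 against 0.10, -0.25 and -0.39, apart but not called (adjusted p = 0.12). Of 23 interferon response genes, 4 were called lower in the duodenum and 0 higher, with a median of -0.72. Oas1a, an antiviral synthetase, was at -1.63, -1.34 and -1.87 against 0.85, 2.32 and 1.68, or 10.4-fold (adjusted p = 1.46e-05). Gbp2, a guanylate binding protein, was 9.62-fold and Ifi27 5.64-fold higher in the ileum (adjusted p = 5.85e-05 and 0.000115), and the peptide transporter Tap1 2.63-fold (adjusted p = 0.0426, 0.142 without duodenum 1). Ubd, a ubiquitin-like protein induced in inflammation, was at -1.75, -2.28 and -2.07 against 2.19, 2.39 and 1.65, or 13.9-fold (adjusted p = 0.000264).

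Called markers of immune cells were also lower in the duodenum. All 17 tested T cell and intraepithelial lymphocyte genes had a negative difference, 6 were called lower in the duodenum, and the median was -1.44. The mean level of this list ran from -1.33 to -1.21 in the duodenal samples and from -0.28 to 0.71 in the ileal ones. Cd8a was at -3.05, -3.85 and -2.91 against -0.69, -0.48 and 0.14, or 6.55-fold (adjusted p = 0.000529), and Cd3e 6.59-fold (adjusted p = 0.00459, 0.474 with normexp background correction). The other 4 were Cd7, Gzma, Zap70 and Ccl5, 3.59-fold to 4.82-fold higher in the ileum, none of which was called without duodenum 1 (adjusted p = 0.144 to 0.255). The bright T cell gene Cd3g was at 2.58, 3.13 and 2.35 against 2.91, 3.36 and 3.19 and was not called (adjusted p = 0.318). Of 14 B cell and follicle genes, 2 were called lower in the duodenum and 0 higher, the follicle chemokine Cxcl13 (11-fold, adjusted p = 0.000984) and the lymphotoxin Ltb (4.33-fold, adjusted p = 0.000435). The B cell gene Cd79b was at -2.57, -3.15 and -2.09 against -1.53, -1.92 and -1.52 (adjusted p = 0.231). Of 5 plasma cell genes limma called 0. Of 12 macrophage and dendritic cell genes, 4 were called lower and 0 higher, among them Aif1 (10.2-fold, adjusted p = 0.000984), C1qb (6.07-fold, adjusted p = 0.000426) and C1qa (4.79-fold, adjusted p = 0.00618, 0.154 without duodenum 1). The fourth was Lyz2, which Paneth cells also express. Of 11 mast cell genes, 3 were called lower and 0 higher, led by the mucosal mast cell protease Mcpt1, at -2.55, -3.12 and -2.99 against 0.77, 0.30 and 1.56 (24.7-fold, adjusted p = 0.00743, 0.0507 without duodenum 1).

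Genes of blood and of the tissue under the epithelium also differed. Hbb-b1, a beta globin, was at -2.67, -2.72 and -2.31 in the duodenum and at 0.91, 0.58 and 1.86 in the ileum, or 14.3-fold (adjusted p = 9.93e-06), and 2 of 3 red blood cell genes were called lower, the other being Hbb (adjusted p = 0.0373, 0.478 without duodenum 1). Of 16 fibroblast and matrix genes, 4 were called lower in the duodenum and 1, the basement membrane collagen Col4a1, higher (adjusted p = 0.0207, at most 0.205 with a sample left out), whose second probe went the other way (-1.39). Vim, vimentin, was 5.04-fold and Col3a1 2.71-fold higher in the ileum (adjusted p = 0.00178 and 0.00682, then 0.0569 and 0.0851 without duodenum 1). Of 8 smooth muscle, 12 endothelial and 11 neuron and glia genes limma called 0 each. What part immune, blood and stromal cells had in the ileal side of the class II, interferon and antimicrobial results was not tested.

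The called genes of the pancreatic and handling lists lay on the duodenal side. Of 20 pancreatic acinar genes, 3 were called higher and 0 lower, with a median of 0.70, and 7 were never well above background in the ileum. Amy2a3, pancreatic amylase, was at -0.39, 0.22 and -0.82 in the duodenum and not well above background in the ileum, at least 16.3-fold higher (adjusted p = 0.000309). Its near-identical copies make the exact gene uncertain. Cpb1, a pancreatic carboxypeptidase, was at least 10.2-fold higher (adjusted p = 0.00181, 0.0595 without duodenum 1) and Prss1, trypsinogen, 3.21-fold (adjusted p = 0.034, then 0.21). Pnlip, pancreatic lipase, was at -1.95, -2.21 and -1.61 against -3.37, -2.21 and -2.28 and was not called (adjusted p = 0.426). Of the 20 acinar genes, 16 had a positive difference and 4 a negative one. Spink1, a pancreatic trypsin inhibitor, ran the other way, at -3.55, -3.25 and -2.64 in the duodenum and at 0.12, 0.65 and 1.07 in the ileum. Its second probe differed by -0.74. Of 22 stress and immediate early genes, which rise when tissue is taken apart, 4 were called higher in the duodenum and 0 lower, with a median of 0.69. Averaged over the list, levels ran from 2.35 to 2.61 in duodenal and from 1.70 to 1.87 in ileal samples. The heat shock gene Hspa1a was at 6.53, 6.95 and 6.31 against 4.84, 3.95 and 3.08, or 7.39-fold (adjusted p = 0.00317). The others were Jun, Klf6 and Dnajb1, 2.29-fold to 4.32-fold higher, and with quantile normalization they were not called (adjusted p = 0.105, 0.0929 and 0.126), nor without duodenum 1 (0.224, 0.221 and 0.274). The part of handling in the duodenal results was not tested.

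**Figure D4:**
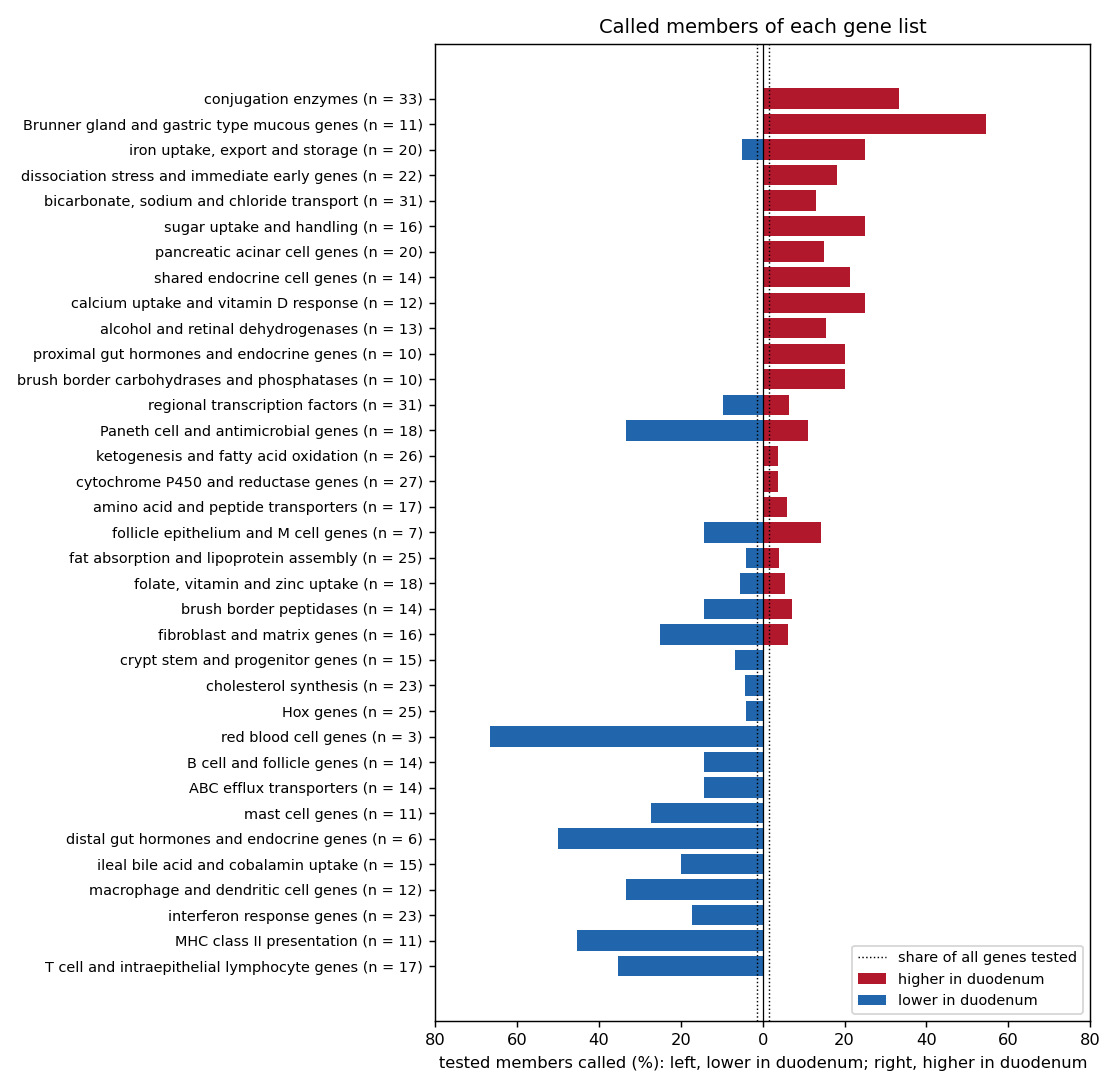
Share of tested members called (%) for the 35 gene lists with at least 1 call; red bars to the right are higher and blue bars to the left lower in the duodenum, n is the number tested, and dotted lines mark the 1.48% and 1.34% of all genes. Conjugation enzymes, Brunner gland and gastric mucous genes, and iron genes extend to the right. Class II, T cell, macrophage and distal hormone genes extend to the left. The bar of the red blood cell list rests on 3 genes.

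Among the called genes, the jejunum lay between the ends in 766 of 951 (80.5%), against 37.0% of all tested genes. Called genes were selected for ends that lie far apart, which by itself makes a jejunal mean between them more likely. The contrast of these shares therefore cannot show a gradient along the bowel. The place of the jejunal mean was counted from 0 at the ileal to 1 at the duodenal mean. Its median among called genes was 0.77, or 0.83 among genes higher in the duodenum and 0.72 among those lower. The jejunum went past the duodenum in 171 called genes and past the ileum in 14. In the same fit 181 genes (0.538%) were called between duodenum and jejunum, 85 higher in the duodenum (0.253%) and 96 lower (0.285%). Between jejunum and ileum 1421 (4.22%) were called, 932 higher in the jejunum (2.77%) and 489 lower (1.45%). These comparisons share samples. Duodenal and jejunal samples also share arrays and scan days pairwise, and ileal samples do not, so a like profile and a shared array cannot be told apart.

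**Figure D5:**
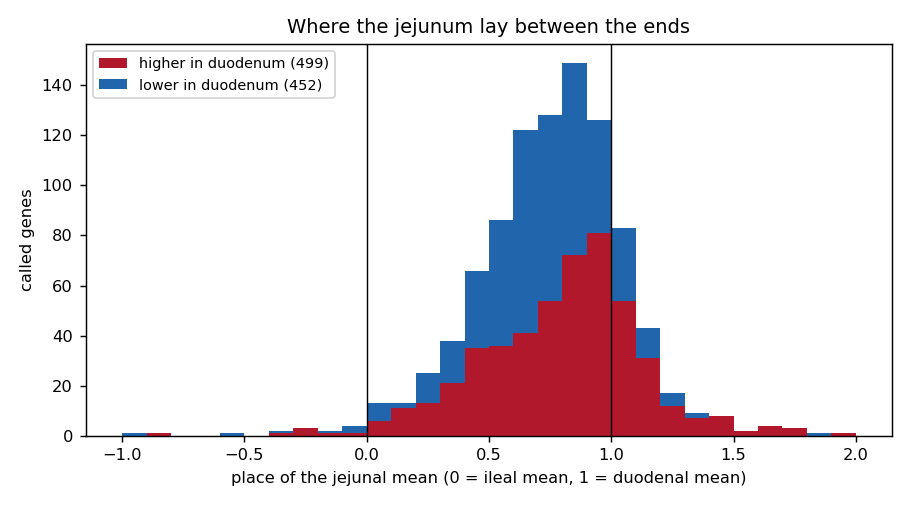
Number of called genes (y axis) by the place of the jejunal mean between the ileal mean (0) and the duodenal mean (1), in bins of 0.1, stacked for the 499 genes higher (red) and 452 lower (blue) in the duodenum; places beyond the axis are counted in its end bins. Most genes lie between 0.5 and 1.1, nearer the duodenum.

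Of the called genes, 535 were called between jejunum and ileum only, 61 between duodenum and jejunum only, 34 at both borders with the jejunum between the ends, and 316 at neither. In the other called genes the jejunum lay above both ends (3) or below both (2). The first group held Leg1, Papss2, Ghrl, Plb1, RT1-Ba and Tmigd1. Tmigd1 was at -1.09, -0.67 and -0.51 in the jejunum, close to the duodenum, and its step to the ileum was -4.77 (adjusted p = 2e-07). Papss2 was at 7.20, 4.67 and 5.36 there, around its duodenal values. Genes that dropped between duodenum and jejunum included Meis2, Amy2a3, Cpb1, Gsta1 and Edn1, the gene of endothelin. Gsta1 was at -2.23, -2.39 and -2.69 in the jejunum, a step of 3.17 (adjusted p = 8.69e-07), and Nts, with the opposite direction, was at 3.18, 2.29 and 2.95, close to its ileal values. Steps at both borders were called for Gkn1, Gkn2, Tff2, Adh1c, Adh7 and Fabp6. Gkn1 fell by 4.44 from duodenum to jejunum, where it was at 0.59, -0.48 and -0.45, and by a further 2.33 to the ileum.

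A few genes had their extreme in the jejunum, 20 above and 11 below both ends over all genes tested. Fabp2, the enterocyte fatty acid binding protein, was at 8.38, 6.55 and 6.86 in the jejunum, above 4.06, 4.24 and 4.02 in the duodenum (adjusted p = 6.15e-05) and 4.91, 6.27 and 5.31 in the ileum (adjusted p = 0.0177). Gip was at 7.51, 5.82 and 6.27 in the jejunum, above its levels at both ends (adjusted p = 0.0255 and 0.000339). Dnase1, the digestive nuclease, was at 6.82, 5.78 and 6.46, above both ends. Csta and Stfa3, which encode protease inhibitors, were also highest there, but a second probe of each gene was dim and did not separate the ends. The antimicrobial lectins Reg3b and Reg3g were lowest in the jejunum. Reg3b was at 4.69, 2.23 and 5.21 there, against 6.52, 6.66 and 6.22 in the duodenum (adjusted p = 0.0157) and saturated spots at 6.24, 6.25 and 5.26 in the ileum. Rhbdl2, a membrane protease, was at 0.62, -0.83 and -0.35 in the jejunum, below both ends as well. Jejunum 1 was the highest jejunal sample for Fabp2, Gip, Papss2 and Leg1, and its proliferation list mean of -1.08 stood below 0.53 and 0.43 in the other jejunal samples.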

How the data were processed

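Per the file headers, the authors scanned Agilent whole rat genome arrays and Feature Extraction gave background-subtracted, dye-normalized intensities; the processed signal intensity of each sample's labelled dye was used as deposited. The deposited value table holds the same intensity values (log2 within 0.02 at all spots). From these, log2 values minus the sample's 75th percentile were computed, flagged spots were left out, and 38846 probes were kept that exceeded background clearly in all 3 samples of some segment; the brightest probe stood for each of 33648 genes. Of 41012 probes, 10811 were named by accession, 5556 by current and 3716 by older symbols; 20929 kept the file's name. Arrays of the 6 samples had 44.4% to 92.5% of probes well above background and median intensities of 266 to 1048; their number limits the precision. The ileal arrays came from 2 software versions. Stomach arrays had a looser limit for well above background (multiplier 2.6, against 13 for duodenum and ileum). limma 3.58.1 (R 4.3.3) fitted segment and dye over all 15 samples, two-sided, with a variance trend and the array slide as random block. The block correlation was 0.361, and 9 degrees of freedom remained. Colon 3 was scanned on another day than colon 1 and 2 but shares their slide number, so it was in their block. Python 3.11.15 and pandas 2.3.3 made the summaries. An "at least" fold replaces a dim group's value by the higher of its own signal and the lowest signal well above background on each array. The dye term called 0 genes by limma (634 at an unadjusted p under 0.05). The fit was also run on simulated data for duodenum against ileum (33648 genes). There it recovered 87 of 100 genes changed by log2 3, 30 of 100 by 1.5, and made 8 false calls. Whether these counts carry over to the measured samples, with their dependence on brightness, was not tested.

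Named genes are the 5 markers, the 15 largest called non-overlapping differences each way, up to 4 called members of each list each way (2 members of a list with none) and 6 per place of the jejunum; other genes were added after their values were seen. The members and the 43 lists were chosen with earlier results of these data known, and list counts are descriptions. Fits leaving out each of 15 samples and 16 other settings were tried. Not every gene named by that rule is described.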

Additional observations from a re-analysis of the deposited data

How the results depend on the processing

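The 499 genes called higher in the duodenum, the 452 called lower and the 766 with the jejunum between were recounted under each setting. Leaving out 1 sample at a time gave 92 to 796 higher, 106 to 649 lower and 186 to 1221 between, with the lowest counts without duodenum 1 and the highest without jejunum 1. Quantile normalization gave 316 higher, and dropping the intensity trend gave 263. With scan day as the random block there were 311 higher, 286 lower and 496 between. Fitting fewer samples cut the counts: the 9 small bowel samples gave 116 higher, 122 lower and 219 between, and the 6 samples of the ends gave 106 higher and 78 lower. Cy3 samples alone, where the lone duodenal sample is assumed to vary like the other groups, gave 43 higher, 52 lower and 82 between. Without the dye term there were 719 higher and 660 lower. Other scalings moved the split of calls and the median of all genes: normexp gave 403 higher and 451 lower, with the median at 0.15 in place of -0.07. Hadh turned to -0.050 under normexp; the cause was not tested. Cd3e lost its call there too (-0.64, adjusted p = 0.474).

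Samples of the ends share replicate numbers. Deviations of samples with the same number correlated at -0.047, 0.0011 and 0.256, and those with different numbers at -0.182 to 0.143. With 3 samples a segment this check cannot decide whether the numbers are pairs. They were not taken as pairs. With the replicate number as a block, 119 genes were called higher, 199 lower and 294 between, and 282 of the 951 calls were kept. Dim probes limit the precision: in ileum 1, 44.4% of probes were well above background.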

Other observations

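The called genes named here lie outside the lists and were chosen one by one after their values were seen. Each held its call in every fit that left out a sample. Bpnt1, which clears the by-product of sulfation, was at 4.03, 5.45 and 3.95 in the duodenum and at 1.28, 2.19 and 1.61 in the ileum, 6.8-fold higher (limma, adjusted p = 0.00103), the same direction as Papss2. Suox, sulfite oxidase, was at 0.56, 0.18 and 0.72 against 2.64, 2.57 and 3.48, 5.48-fold higher in the ileum (adjusted p = 0.000147). Sqor, which oxidises hydrogen sulfide, was 5.19-fold higher in the ileum (adjusted p = 0.000468). The sialyltransferases St6gal1 and St3gal4 were 5.37-fold and 8.55-fold higher in the ileum (adjusted p = 0.00103 and 0.00186), though with normexp St3gal4 was not called (adjusted p = 0.0601). Cmahp, of the enzyme family that modifies sialic acid, was at -0.05, -0.45 and 0.09 against 4.28, 4.28 and 4.37, or 26.4-fold (adjusted p = 5.6e-06).

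Nfe2l2, the factor that drives antioxidant genes, was at 4.71, 4.75 and 4.38 in the duodenum and at 2.91, 2.67 and 2.88 in the ileum, 3.75-fold higher (adjusted p = 0.000238). The aldo-keto reductases Akr1b8 and Akr1c15 were 6.56-fold and 12.6-fold higher in the duodenum (adjusted p = 0.000356 and 3.51e-05). Ffar4, a receptor for long-chain fatty acids, was 3.94-fold higher in the ileum (adjusted p = 0.000512).

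As a description over genes, which are not replicates, the correlation of a duodenal sample with the jejunal sample of the same array was 0.936 to 0.987. With the jejunal samples of other arrays it was 0.911 to 0.965. Between duodenal samples it was 0.928 to 0.964, and between duodenal and ileal samples it was 0.908 to 0.951.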
